A study of Mus musculus with 12 samples.

Results

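The 32 genes described here mark or build the glia of the dorsal root ganglion, the sensory ganglion beside the spinal cord. They were chosen by name from a list of 32 symbols, and each symbol matched 1 of the 41388 gene rows of the deposited count tables. Grouped by role, 13 are genes of satellite glia, 5 are genes of glial identity shared by satellite glia and Schwann cells, 9 encode proteins of myelin, and 5 regulate Schwann cells. Of the 32, 29 passed the filter on low counts and were tested.

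RNA was sequenced from EGFP-sorted ganglion cells of adult C57BL/6 mice aged 3 months, so the glial transcripts were read in libraries prepared from neurons selected for a neuronal reporter. The mice were heterozygous for a floxed Ret allele that turns on EGFP after Cre acts, and Cre was driven from the sensory neuron sodium channel locus Scn10a (NaV1.8). The 12 libraries formed 4 groups of 3: male L6S1 (pools A, B and C), female L6S1 (A, B and C), male L345 (A, B and C) and female L345 (B, C and D). L6S1 denotes ganglia of levels L6 and S1, and L345 those of levels L3, L4 and L5. No group was treated.

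A library drew on pooled ganglia, 12 to 32 of them from 2 to 8 mice, and was made from 10 ng of RNA in 12 PCR cycles. Male L345 C is given as 5 mice in one label and as 3 in another. Female L6S1 B and C, male L6S1 C and female L345 D carry another form of title (9CGNAV) than the other 8 libraries. Their genotype entries name 1 of the 2 alleles each, the Cre allele for female L6S1 B and C and the Ret allele for the other two, while the source names and protocols name both alleles for all 12, which were taken as 1 genotype. Total counts ran from 16176436 in female L6S1 A to 26694404 in female L345 D, and 3 counts, the floor used here, corresponded to 0.112 to 0.185 CPM, the count scaled to the library's total. P-values measure the spread between these pools.

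Satellite glia wrap the cell bodies of sensory neurons, take up potassium and glutamate, and are coupled to each other by gap junctions. Schwann cells wrap the axons: myelinating ones build compact myelin around large axons, and non-myelinating ones ensheath bundles of small unmyelinated axons. Both arise from neural crest and share SOX transcription factors of the HMG box type, which bind DNA at sites close to ACAATG or ACAAAG.

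Promoter sequence is shown for Sox2, the single tested gene whose L6S1 and L345 libraries did not overlap, and for Apoe, whose libraries spread most at L6S1 in absolute CPM apart from Pmp22. Both were chosen after the values and the motif matches were seen, and the windows of Fabp7 and Dhh, looked at first, held no match. The 250 bases before the RefSeq start (GRCm38.p6) are printed 5′ to 3′ on the strand of the gene, with every match to ACAAAG or ACAATG on either strand in capitals. The Sox2 window is chr3:34649745-34649994 on the plus strand. It ends before the GENCODE M21 start of Sox2 at position 34650405 and lies within the non-coding gene Sox2ot, outside its exons. The Apoe window is chr7:19699189-19699438 on the minus strand, belongs to the one of 3 RefSeq starts with the most matches, and overlaps no annotated gene.
Sox2: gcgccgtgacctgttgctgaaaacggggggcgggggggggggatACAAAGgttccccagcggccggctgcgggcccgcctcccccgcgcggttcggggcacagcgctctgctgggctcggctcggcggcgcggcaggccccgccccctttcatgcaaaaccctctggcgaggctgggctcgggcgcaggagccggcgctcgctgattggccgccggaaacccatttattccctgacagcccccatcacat
Apoe: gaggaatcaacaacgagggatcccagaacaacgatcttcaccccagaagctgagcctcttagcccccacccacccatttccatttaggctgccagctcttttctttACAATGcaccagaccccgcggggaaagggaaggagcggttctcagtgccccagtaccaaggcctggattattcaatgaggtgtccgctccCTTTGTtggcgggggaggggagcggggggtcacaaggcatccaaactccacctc

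The Sox2 window held 1 match, 206 bases before the start, and the Apoe window held 2, at 144 and 54 bases. RefSeq windows were found for 23 of the 32 genes, with 38 windows in all. At least 1 of the 2 motifs stood in 7 of the 38 windows (18.4%) belonging to 5 genes, against 8292 of all 32851 mouse promoter windows of that length (25.2%). Several windows are alternative starts of 1 gene, and the shares are a description that was not tested and says nothing on binding.

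Per kilobase of exon, the levels of the 32 genes ran widely, with Pmp22 at the top and Gfap at the bottom. In TMM-scaled CPM per kilobase (CPM rescaled between libraries by the trimmed mean of M-values), Pmp22 averaged 1146 ± 216, Apoe 476 ± 188 and Fabp7 154 ± 47.7 (SD, n = 12 libraries). Pmp22 encodes a compact myelin protein that other cells also make, Apoe encodes the lipid carrier apolipoprotein E, and Fabp7 encodes a fatty acid binding protein of immature and satellite glia. S100b, a calcium-binding protein of glia, followed at 54.6 ± 35.2, then Sparc at 51.1 ± 12.2 and Aldoc at 49.2 ± 12.7 (SD, n = 12). These neighbours in the order, S100b, Sparc and Aldoc, did not differ beyond their spread.

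At the other end stood Gfap, the intermediate filament of reactive glia, at 0.0416 ± 0.0494, Pou3f1, a transcription factor of promyelinating Schwann cells, at 0.0436 ± 0.0344, and Mag, the myelin-associated glycoprotein, at 0.0853 ± 0.0550 CPM per kilobase (SD, n = 12). Gfap had at most 3 counts in 7 libraries, Pou3f1 in 6, and Foxd3, a neural crest transcription factor, in 3. Those 3 genes were the ones left out by the filter.

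**Figure D1:**
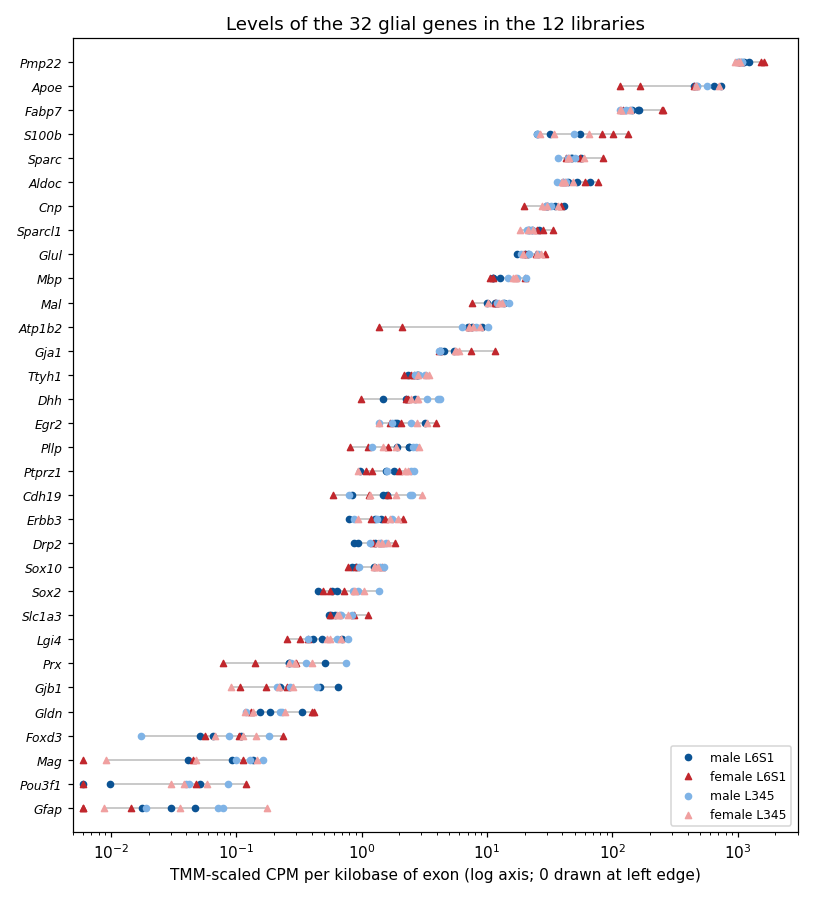
Each row is 1 of the 32 glial genes and each point 1 library, on a log axis of TMM-scaled CPM per kilobase of exon, with dark symbols for L6S1, pale ones for L345, circles for males, triangles for females and values of 0 at the left edge. Pmp22 and Apoe lead, Gfap and Pou3f1 trail, and 2 female L6S1 triangles stand left of all other libraries for Apoe and for Atp1b2.

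The labelled cell type was checked against its markers. Sensory neuron genes were abundant, with Calca, the CGRP precursor, at 5765 to 10312 CPM in L6S1 libraries and 5818 to 6621 CPM in L345 libraries. Markers of oligodendrocytes, the myelinating glia of the brain and spinal cord, were at or near 0: Opalin, Olig1 and Olig2 had no count in any library, and the summed CPM of 5 such genes was 0 to 0.122 in L6S1 and 0 to 0.223 in L345.

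The levels were then compared, L6S1 over L345, with both sexes weighted equally in 1 fit of edgeR's quasi-likelihood test across 15281 genes. None of the 29 tested genes passed an adjusted p of 0.05 (Benjamini-Hochberg over all genes), where 356 of all genes (2.33%) did, 222 (1.45%) of them higher and 134 (0.877%) lower. At an unadjusted p under 0.05 there were 10 of 29 (34.5%), against 4060 of all genes (26.6%). The median log2 fold change of the 29 was -0.20, and that of all genes -0.06, with 11 of the 29 above 0 and 18 below. The share of all genes below 0 was not counted, here or for the lists that follow. DESeq2 called 5 of the 29 (Fabp7, Aldoc, S100b, Sox2 and Dhh), where it called 9.94% of all genes. Limma-voom called 7 (Fabp7, Atp1b2, Aldoc, Sox2, Mbp, Pmp22 and Dhh), where it called 21.4%. These were 2 of 24 alternative analyses, of which 15 called none of the 29. Over the 24, the median of the tested glial genes was lowest at -0.25 without female L6S1 C (all genes -0.05). It was highest at 0.02 with offsets for GC content and length (all genes 0.01). The 95% interval excluded a 2-fold change in either direction for 17 of the 29 and did not for the other 12.

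Summed over the 32 genes, the level was 5072 ± 461 CPM in L6S1 and 4543 ± 286 CPM in L345 (SD, n = 6 each), most of it Pmp22 and Apoe. Without those 2 genes it was 1244 ± 249 CPM in L6S1 and 1092 ± 69.0 CPM in L345. For this smaller sum, female L6S1 B and C were the 2 highest libraries. The other L6S1 libraries had 1085 to 1155 CPM, within the L345 range of 980 to 1168 CPM. In pooled sorted cells, a different number of cells of a type and a different amount of RNA per cell cannot be told apart, and the cells that made each transcript were not identified.

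**Figure D2:**
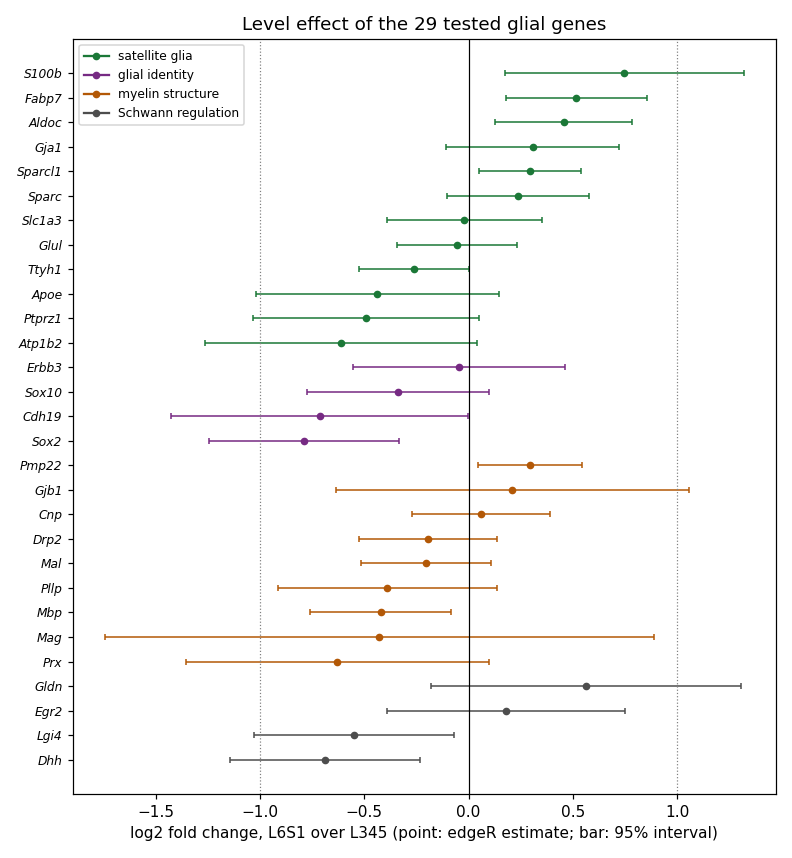
Points are edgeR log2 fold changes of L6S1 over L345 for the 29 tested genes, bars are 95% intervals, colours give the role, and dotted lines mark a 2-fold change. Estimates run from -0.79 (Sox2) to 0.75 (S100b), and no gene passed the adjusted threshold.

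Genes of satellite glia split evenly in sign, with 6 of the 12 tested above 0 and 6 below, and a median log2 fold change of 0.11. Fabp7 and S100b lay on one side, and Apoe and Atp1b2 on the other. Fabp7 had 206, 201 and 179.6 CPM in male L6S1 pools A, B and C and 153, 315 and 309 CPM in female L6S1 pools A, B and C. In male L345 pools A, B and C it had 174, 161 and 144 CPM, and in female L345 pools B, C and D it had 148, 145 and 173 CPM. Female L6S1 B and C were the 2 highest libraries, the male L6S1 libraries also lay above every L345 library, and female L6S1 A lay within the L345 range, so the groups overlapped. The log2 fold change was 0.52 ± 0.16 (SE; edgeR adjusted p = 0.0826). It was 0.13 without female L6S1 B and C.

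S100b had 47.3, 82.1 and 37.2 CPM in male L6S1 pools A, B and C and 149, 122 and 199 CPM in female L6S1 pools A, B and C. Against these stood 36.9, 37.8 and 73.7 CPM in male L345 and 39.4, 97.2 and 50.7 CPM in female L345. All 3 female L6S1 libraries were above every other library, while the male L6S1 libraries lay among the L345 ones. Across both sexes the log2 fold change was 0.75 ± 0.27 (SE; edgeR adjusted p = 0.111), and it was 0.71 without female L6S1 B and C.

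Apoe had 1280.3, 893 and 1469 CPM in male L6S1 pools A, B and C, and 891, 228 and 327 CPM in female L6S1 pools A, B and C. In L345, males had 1118, 929.7 and 934 CPM and females 917, 927 and 1393 CPM. Female L6S1 B and C were thus far under the other 10 libraries, which spanned 891 to 1469 CPM. The log2 fold change over both sexes was -0.44 ± 0.27 (SE; edgeR adjusted p = 0.306), and without female L6S1 B and C it was 0.00.

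Atp1b2, the beta subunit of the glial sodium-potassium pump, took the same shape. It had 30.8, 28.9 and 37.2 CPM in male L6S1 and 29.2, 5.65 and 8.59 CPM in female L6S1. In L345 it had 41.3, 26.0 and 33.6 CPM in males and 29.4, 31.4 and 35.7 CPM in females. Female L6S1 B and C alone stood below the span of the L345 libraries. The estimate was -0.61 ± 0.30 on the log2 scale (SE; edgeR adjusted p = 0.214), and -0.11 without those 2 libraries.

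Aldoc, a glycolytic enzyme, had 133 to 252 CPM in L6S1 (median 185) and 117 to 159 CPM in L345 (median 134), with a log2 fold change of 0.46 ± 0.15 (SE; edgeR adjusted p = 0.0990). For Sparcl1, a secreted matrix protein, all 6 L6S1 libraries lay above the L345 mean of their sex. That held for 1 of the 29 genes, and all 6 lay below for 4. The share of all genes with 6 libraries on one side was not counted. The 67.6 to 104 CPM of Sparcl1 in L6S1 and 57.1 to 72.3 CPM in L345 overlapped, with a log2 fold change of 0.29 ± 0.12 (SE; edgeR adjusted p = 0.134). Without female L6S1 B and C, Aldoc stood at 0.17 and Sparcl1 at 0.19.

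Ttyh1 had 13.9 to 17.8 CPM in L6S1 and 16.8 to 21.8 CPM in L345, all 6 L6S1 libraries lying under the L345 mean of their sex. Ptprz1, a receptor phosphatase, had 7.86 to 16.2 CPM in L6S1 (median 11.2) and 7.50 to 21.3 CPM in L345 (median 18.5). Gja1, the gap junction protein connexin 43, had 12.9 to 36.0 CPM in L6S1 and 12.8 to 18.7 CPM in L345, the highest in female L6S1 C. Glul, which converts glutamate to glutamine, and Slc1a3, a glutamate transporter, had estimates of -0.06 and -0.02, with 95% intervals of -0.35 to 0.23 and -0.39 to 0.35. Sparc, a matrix glycoprotein, had 144 to 284 CPM in L6S1 and 125 to 198 CPM in L345.

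**Figure D3:**
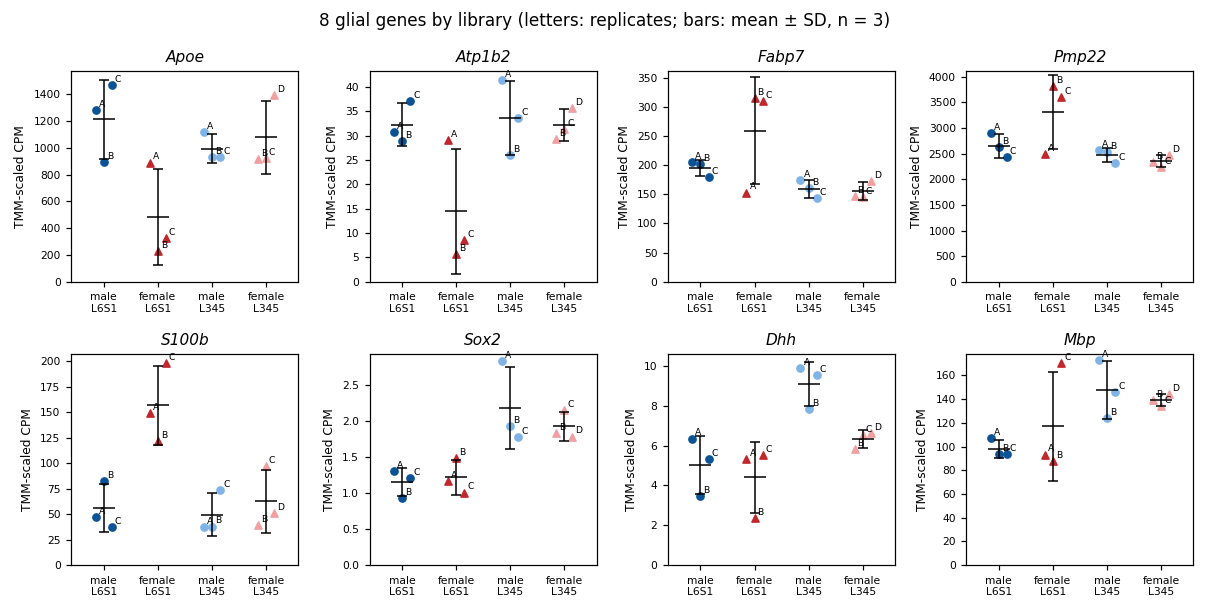
TMM-scaled CPM of 8 glial genes in each library, in columns for male L6S1, female L6S1, male L345 and female L345, with letters for the pools and bars for the mean ± SD (n = 3). Female L6S1 B and C are the 2 lowest libraries for Apoe and Atp1b2 and the 2 highest for Fabp7 and Pmp22, and Sox2 is lower in each L6S1 library than in any L345 library.

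Of the 4 tested genes of glial identity, Sox2 had the lowest estimate. This transcription factor holds back the differentiation of Schwann cells. Its CPM was 1.31, 0.931 and 1.20 in male L6S1 and 1.16, 1.48 and 1.01 in female L6S1, against 2.83, 1.93 and 1.77 in male L345 and 1.84, 2.15 and 1.78 in female L345. Every L6S1 library was under every L345 library for Sox2 alone of the 29. Of all tested genes, 495 (3.24%) had groups that did not overlap, 187 of them (1.22%) with L6S1 lower. A count of 1 in 29 is thus near the share of all genes for either direction. The log2 fold change was -0.79 ± 0.21 (SE; 95% interval -1.24 to -0.33), and the edgeR adjusted p of 0.0615 missed the threshold. It was -0.83 without female L6S1 B and C, and -0.90 to -0.67 over the 24 alternatives. The counts behind it were low, at 19 to 60 reads a library.

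Cdh19, a cadherin of Schwann cell precursors and glia, had 2.51 to 6.90 CPM in L6S1 and 3.42 to 13.0 CPM in L345. All 6 L6S1 libraries lay under the L345 mean of their sex, and the log2 fold change was -0.71 ± 0.33 (SE; edgeR adjusted p = 0.187). Sox10, the SOX factor required for peripheral glia to form, had 2.13 to 3.98 CPM in L6S1 and 2.59 to 4.10 CPM in L345 (log2 fold change -0.34 ± 0.20, SE; edgeR adjusted p = 0.295). Erbb3, the receptor by which glia read axonal neuregulin, had 4.74 to 12.9 CPM in L6S1 and 5.28 to 11.8 CPM in L345, an estimate of -0.04. All 4 tested identity genes had estimates below 0, with a median of -0.53.

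Of the 9 myelin genes, 3 had estimates above 0 and 6 below, with a median of -0.20. Mbp, myelin basic protein, had 107, 93.5 and 93.4 CPM in male L6S1 and 93.2, 88.1 and 170.2 CPM in female L6S1. In L345 it had 173, 124 and 146 CPM in males and 139, 134 and 145 CPM in females. Of the L6S1 libraries, 5 lay under all 6 L345 libraries, and female L6S1 C lay near the top. The log2 fold change was -0.42 ± 0.16 (SE; edgeR adjusted p = 0.122). Mbp was called without female L6S1 C (-0.60, edgeR adjusted p = 0.0171), in a fit that called 1.67% of all genes. Without female L6S1 B and C together, which left 1 female L6S1 library, the estimate was -0.59.

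Pmp22 had 2896, 2629.8 and 2430.5 CPM in male L6S1 and 2485, 3826 and 3613 CPM in female L6S1, against 2567, 2538 and 2326 CPM in male L345 and 2346, 2242 and 2472 CPM in female L345. As with Fabp7, female L6S1 B and C were the 2 highest libraries. Male L6S1 A and B also lay above every L345 library, and male L6S1 C and female L6S1 A lay within the L345 range. The log2 fold change was 0.29 ± 0.12 (SE; edgeR adjusted p = 0.138), and 0.08 without female L6S1 B and C. Within each library, Pmp22 stood above Mbp per kilobase by a ratio of 75.7 to 155 in L6S1 and 53.0 to 73.1 in L345.

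The other 7 myelin genes all overlapped between levels. Cnp, an enzyme of non-compact myelin, had 72.4 to 150.3 CPM in L6S1 and 99.2 to 135 CPM in L345 (log2 fold change 0.06), and shares 154 of its 3639 exonic bases with Dnajc7 on the other strand. Mal, a myelin proteolipid, had 21.1 to 38.3 CPM in L6S1 and 28.1 to 41.5 CPM in L345, and Drp2, which links to periaxin at the Schwann cell surface, had 7.42 to 15.7 CPM in L6S1 and 9.89 to 13.8 CPM in L345. Pllp, plasmolipin, had 1.52 to 4.49 CPM in L6S1 and 2.28 to 5.38 CPM in L345. Prx, periaxin itself, had 0.435 to 2.86 CPM in L6S1 and 1.46 to 4.15 CPM in L345, with an estimate of -0.63 ± 0.34 (SE; edgeR adjusted p = 0.245). Gjb1, the gap junction protein connexin 32 of myelinating Schwann cells, and Mag were near the floor, at 0.156 to 1.11 and 0 to 0.661 CPM over the 12 libraries.

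Among regulators of Schwann cells, Dhh, the hedgehog ligand that Schwann cells send to the perineurium, had 6.35, 3.47 and 5.30 CPM in male L6S1 and 5.31, 2.35 and 5.53 CPM in female L6S1. In L345 it had 9.91, 7.81 and 9.53 CPM in males and 5.81, 6.53 and 6.64 CPM in females. Each L6S1 library was under the L345 mean of its sex, and the groups touched only through male L6S1 A and female L345 B. The log2 fold change was -0.69 ± 0.21 (SE; 95% interval -1.15 to -0.23; edgeR adjusted p = 0.0836), and -0.56 without female L6S1 B and C.

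Lgi4, a secreted protein needed for Schwann cell myelination, had 1.17 to 3.18 CPM in L6S1 and 1.73 to 3.59 CPM in L345, with a log2 fold change of -0.55 ± 0.22 (SE; edgeR adjusted p = 0.146). It shares 2059 of its 4584 exonic bases with Fxyd3 on the other strand, and the sources used here do not give the strand setting of the counting. Egr2, the transcription factor that switches on myelin genes, had 5.68 to 13.3 CPM in L6S1 and 4.67 to 11.2 CPM in L345. Gldn, gliomedin of the Schwann cell microvilli at nodes, had 0.608 to 1.95 CPM in L6S1 and 0.547 to 1.15 CPM in L345, with the wide 95% interval of -0.18 to 1.31 on the log2 scale.

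Spread within a level was wider at L6S1. The coefficient of variation over 6 libraries was higher in L6S1 than in L345 for 25 of the 29 genes. The share of all genes for which it was higher in L6S1 was not counted. Its median was 31.7% in L6S1 and 17.1% in L345 for these genes, beside 25.7% in L6S1 and 16.2% in L345 for all genes tested. Without female L6S1 B and C the L6S1 median was 19.0% for the 29 and 16.3% for all genes.

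Female L6S1 B and C held much of that spread. Female L6S1 B was the lowest of the 12 libraries for 12 of the 29 genes (41.4%) and for 23.6% of all genes. It was the highest for 2 of the 29 (6.90%) and for 15.5% of all genes. Female L6S1 C was the highest for 10 of the 29 (34.5%) and for 20.7% of all genes, and the lowest for 1 (3.45%) and for 21.3%. Relative to the female L345 mean, on the log2 scale with 0.5 CPM added, Apoe lay at -2.24 in B and -1.72 in C, while Fabp7 lay at 1.02 in B and 0.99 in C. Female L6S1 A lay at -0.28 for Apoe and -0.02 for Fabp7. The ratio of Apoe to Fabp7 per kilobase was 0.457 in B and 0.668 in C, and 2.80 to 5.16 in the other 10 libraries. Outside L6S1, male L345 A was the highest of the 12 libraries for 7 of the 29 genes (24.1%) and for 3.59% of all genes.

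**Figure D4:**
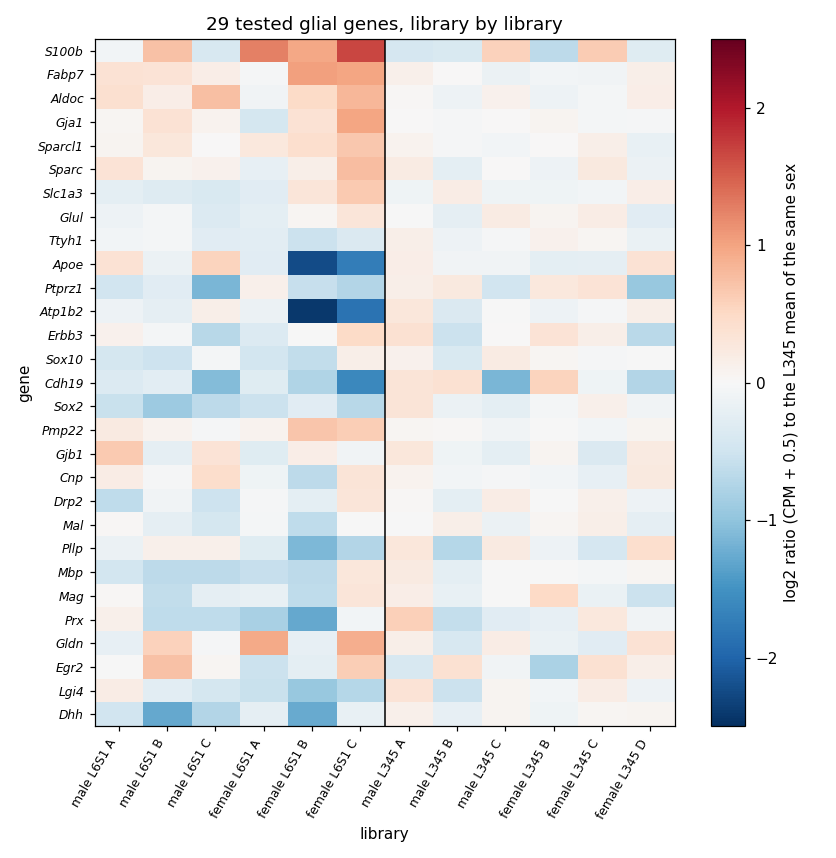
Colours give the log2 ratio of each library's CPM (plus 0.5) to the L345 mean of the same sex, for the 29 tested genes in rows and the 12 libraries in columns, L6S1 left of the line. The columns of female L6S1 B and C hold the deepest blue (Apoe and Atp1b2) and much of the red (S100b, Fabp7, Gja1), and male L6S1 columns are paler.

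Markers of other cells also differed between libraries. The summed level of 8 macrophage genes was 25.7 CPM in female L6S1 C, 5.08 to 5.79 CPM in the other L6S1 libraries and 2.19 to 3.19 CPM in L345. The complement gene C1qb was called higher in L6S1 as 1 of 3 tested macrophage genes, with a log2 fold change of 2.21 ± 0.38 (SE; edgeR adjusted p = 0.00982). It had 2.13 to 10.9 CPM in L6S1 and 0.625 to 1.41 CPM in L345. Outside female L6S1 C, C1qb made up 2.13 to 4.44 CPM of the macrophage sums in L6S1. The other 2 tested macrophage genes were not called. The summed level of 8 fibroblast genes was 126 to 336 CPM in L6S1 and 70.0 to 93.2 CPM in L345, most of it Dcn, the 1 gene called of 6 tested. Lum, another fibroblast matrix gene and named after its values were seen, stood at 39.5 CPM in female L6S1 C, where the other 11 libraries had 0.527 to 2.78 CPM. The 6 endothelial genes, with 0 of 4 tested called, summed to 1.35 to 12.8 CPM in L6S1 and 2.03 to 3.96 CPM in L345, and female L6S1 C was again the highest. Of 10 neuron genes, Rbfox3 alone was called, lower in L6S1 (-0.79 ± 0.18, SE; edgeR adjusted p = 0.0368). The part of these cells in the glial values was not tested.

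Further genes of these glia were not called either. Of 10 further myelin genes 8 were tested, 1 above 0 and 7 below, with a median of -0.29 and none called. Of 10 further satellite glia genes 8 were tested, 2 above 0 and 6 below, with a median of -0.16 and none called. Kcnj10, the inward rectifier potassium channel that defines satellite glia, had 4.15 to 7.11 CPM in L6S1 and 6.04 to 9.63 CPM in L345, with a log2 fold change of -0.43 ± 0.16 (SE; edgeR adjusted p = 0.128).

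Of 16 genes of signalling between axon and Schwann cell, all were tested and none was called, with 4 above 0, 12 below and a median of -0.32. Nrg1, the axonal ligand of ErbB receptors, had 112 to 191 CPM in L6S1 and 98.4 to 131 CPM in L345, with a log2 fold change of 0.32 ± 0.13 (SE; edgeR adjusted p = 0.153). The 6 genes listed as markers of non-myelinating Schwann cells, none called, summed to 1230 to 1686 CPM in L6S1 and 1457 to 1655 CPM in L345. Whether Schwann cells or the sorted neurons made these transcripts was not tested. Among them was Ngfr, the neurotrophin receptor p75. Ngfr had 195, 242 and 265 CPM in male L6S1 and 256, 36.0 and 75.1 CPM in female L6S1, against 167 to 289 CPM in L345. It shared with Apoe and Atp1b2 the low values of female L6S1 B and C.

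Within each sex, none of the 29 genes passed the edgeR test. In males 34 of all genes (0.222%) were called between levels, and in females 55 (0.360%). For Apoe the log2 fold change was 0.29 ± 0.38 in males and -1.16 ± 0.39 in females, and for S100b it was 0.17 ± 0.38 in males and 1.33 ± 0.38 in females (SE, n = 3 pools a group). The difference between these effects, females minus males, was -1.45 ± 0.54 for Apoe and 1.16 ± 0.53 for S100b (edgeR adjusted p = 0.871 for both). That test called 0 of all 15281 genes (0%), against 714 (4.67%) at an unadjusted p under 0.05, of which 2 were among the 29. DESeq2 and limma-voom called 0 of the 29 for it. Between the sexes, females over males with both levels weighted equally, 9 of all genes (0.0589%) and none of the 29 were called. The S100b estimate was 0.92 ± 0.27 (SE; edgeR adjusted p = 0.764), and Gja1 had 0.57 ± 0.19 (SE; edgeR adjusted p = 0.764).

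Which of the 29 genes passed for the level effect depended on the libraries kept. Without female L6S1 A, 9 passed, namely Apoe, Fabp7, Gja1, Atp1b2, Sparcl1, Aldoc, Sox2, Pmp22 and Dhh, in a fit that called 4031 of all genes (25.7%). There female L6S1 rested on pools B and C alone. Without female L6S1 C, Mbp passed alone, in a fit that called 261 of all genes (1.67%). Without both B and C, which left 1 female L6S1 library, the log2 fold change of Mbp was -0.59. Leaving out each of the other 10 libraries gave 0 of the 29.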

How the data were processed

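RNA from EGFP-sorted ganglion cells was amplified with a SMARTer ultra-low-input kit, per the labels' protocols. The submitters' processing notes name the build GRCm38.p2 and the tools Subread and featureCounts 1.4.5. The sources used here do not give aligner settings or the strand setting of the counting. Deposited by the authors, per the file headers, were whole-number counts per gene, CPM and RPKM for each library. The deposited CPM and RPKM were checked to be each count scaled to the library total, and that per kilobase of the deposited length, and were not tested.

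Symbols came from GENCODE M21, which named 40340 of 41388 gene IDs (97.5%). The test on the counts was edgeR 4.0.16 (R 4.3.3; TMM scaling, filterByExpr by group, robust quasi-likelihood fit, 1 mean for each of the 4 groups, 8 residual degrees of freedom). P-values were adjusted by Benjamini-Hochberg over the 15281 genes tested, and a call is an adjusted p under 0.05. CPM printed are TMM-scaled on the tested genes. Standard errors are the log2 fold change over the root of F. The script was tested on simulated data.

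All 32 genes are named. Of the other lists, genes that passed the level test, and Kcnj10, Ngfr and Nrg1, are named, and some others are not reported here. The genes, lists and named genes were chosen with earlier results of these data known. The alternatives were RLE, upper-quartile and library-total scaling, DESeq2 1.42.0, limma-voom (limma 3.58.1), 2 other filters, title form as a term, a replicate block, the 8 libraries of one title form, 2 libraries left out together, offsets for GC content and length, and each library left out in turn, 24 in all.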

Additional observations from a re-analysis of the deposited data

Results flagged for a closer look

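In 5 of 64 groups of 6 libraries (7.81%), 2 levels for each of the 32 genes, the highest library stood apart from the other 5 by more than 0.625 of the group's range. For normal values, chance alone gives about 1 in 20 when either end may stand apart, and less often for the highest library alone. CPM values were not checked to be normal, and the 64 groups share libraries. Female L6S1 C was that library for 3 genes: Sparc had 284 CPM there and 144 to 189.6 CPM in the other L6S1 libraries, Mbp had 170.2 CPM against 88.1 to 107 CPM, and Foxd3 had 0.545 CPM against 0.119 to 0.254 CPM. Foxd3 was near the floor and was not tested. Male L345 A was that library for 2 genes: Sox2 had 2.83 CPM there and 1.77 to 2.15 CPM in the other L345 libraries, and Prx had 4.15 CPM against 1.46 to 2.23 CPM.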

How the results depend on the processing

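None of the 29 genes passed the level test as planned, and 15 of the 24 alternatives also gave 0. The count was 5 with DESeq2 (Mag and Gjb1 had no adjusted p there) and 7 with limma-voom. It was 2 with no filter and 1 with the GC and length offsets, where 3.15% and 5.07% of all genes were called. The 8 libraries of the RetFloxEGFP title form, and the fit without female L6S1 B and C, each held 1 female L6S1 library. There Mbp stood at -0.57 and -0.59 on the log2 scale. The replicate block, whose letters are not said to pair pools (correlations of same-letter deviations of 0.018 to 0.233), gave 6. Leaving out 1 library gave 0 to 9. For females alone DESeq2 gave 3, where it called 4.91% of all genes, and for males alone limma-voom gave 4, where it called 12.2%. Leave-one-out gave 0 to 9 for females alone, 0 to 2 for the difference between the sexes' effects and 0 to 3 for sex. The highest of each came without female L6S1 A, in fits that called 24.5%, 5.21% and 6.32% of all genes. All-gene calls for the level effect were 1519 with DESeq2, 3268 with limma-voom, 1985 (13%) with the replicate block, 841 with no filter, 770 with the offsets, 545 with upper-quartile scaling, 137 without female L6S1 B and C, 125 with title form as a term, and 80 to 4031 with 1 library left out (4031 without female L6S1 A, 883 without female L345 D, 80 without female L345 B). The causes were not tested.

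Of 694 estimates for the 29 genes, 36 for 12 genes had the other sign than the planned fit, in which none was called. Apoe and Gja1 were among the 12 and passed without female L6S1 A. In the 8 libraries the values were Apoe 0.0284, Gja1 -0.137, Sparc -0.0439, Gjb1 -0.0159 and Egr2 -0.0363. Without female L6S1 B and C these were Apoe 0.000667, Gja1 -0.15, Sparc -0.0219, Gjb1 -0.17 and Egr2 -0.13. Slc1a3 stood at 0.0097 (DESeq2), 0.13 (offsets), 0.0085 (RLE), 0.0338 (limma-voom), 0.0642 (replicate block) and 0.0563 (upper-quartile scaling). With the offsets Sox10 was 0.0215, Erbb3 0.15 and Drp2 0.0219. With title form Erbb3 was 0.12 and Cnp -0.0191, and with upper-quartile scaling Glul was 0.0161 and Erbb3 0.0301. With 1 library left out, the ranges were -1.12 to 0.19 for Mag, -0.17 to 0.0823 for Erbb3, -0.13 to 0.0913 for Slc1a3, -0.12 to 0.00655 for Glul, -0.0636 to 0.17 for Cnp and -0.0315 to 0.31 for Egr2. Depth limits Sox2, Prx, Mag, Gjb1, Gldn and Lgi4, which had at most 88 reads in every library.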
